A study of Mus musculus with 4 samples.

Results

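The tektin family of the mouse comprised 5 genes, Tekt1, Tekt2, Tekt3, Tekt4 and Tekt5, which were taken by name from 21938 annotated protein-coding genes. Tektins are coiled-coil proteins that form filaments inside the doublet microtubules of cilia and sperm flagella, where they lie along the wall of the A-tubule and help to stabilise the axoneme. TEKT1 to TEKT4 occur in motile cilia and in sperm flagella, whereas TEKT5 is known mainly from the sperm flagellum. RFX2 belongs to the Regulatory Factor X family of transcription factors, which recognise an inverted repeat called the X-box and are known regulators of cilium genes. The question addressed here was where RFX2 sat at the tektin promoters in testis, how strong each peak was in each animal, and which X-box letters lay under it.

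Chromatin was obtained from testes of 2 WT mice on a mixed background of C57BL/6, 129/Sv and FVB/N. The samples were 2 RFX2 ChIPs, called replicate 1 and replicate 2, and 2 inputs with the same experiment numbers, where an input is chromatin sequenced without immunoprecipitation. According to the labels the tissue was decapsulated testis at postnatal day 29 to 30, while the text of the study names dissociated germ cells of younger animals, and the peak lists do not settle this. Testis contains germ cells of many stages next to somatic cells, so a peak could not be assigned to a stage or cell type, and no chromatin from mice without RFX2 was analysed here. The lists hold no expression values, so tissue markers could not be checked, and the inputs entered only through the peak calling of the authors.

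Peaks were available as 3 lists on GRCm38. Replicate 1 had 39825 peaks and replicate 2 had 21274, each with a score on a −log10 scale that ran from 2.03 to 475 and from 2.08 to 266. The combined list held 2726 peaks with −log10 p from 43.2 to 493 and a fold enrichment over local background from 2.85 to 70.5. It was taken to share reads with both replicates, may have been selected for reproducibility between them, and is no additional replicate. The spread of a peak's score between replicates rests on 2 values, and the read depth of the lists is unknown, so values are given for each replicate and described without a p-value. A promoter was taken as the stretch from -1000 to +500 bp around any annotated transcription start site (TSS) of a gene, and a peak belonged to it when at least 1 bp overlapped.

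RFX2 peaks were found at 4 of the 5 tektin promoters in replicate 1, against 14% of all protein-coding genes, and at 4 of 5 in replicate 2, against 11.3%. In the combined list the count was again 4 of 5, against 5.26% of all genes. The members with a peak were Tekt1, Tekt2, Tekt3 and Tekt4 in every list. The count in both replicates was therefore 4 of 5, where 9.05% of all genes had a peak in both, and the count in all 3 lists was also 4 of 5, where the share of all genes was 5.19%. Tekt5 had no promoter peak in any list, as did 83.8% of all genes. Each of the 4 bound promoters held exactly 1 peak per list, and no other annotated gene had its promoter under the same peak.

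The DNA at these promoters is shown first, since the bound members differ in how the X-box letters are arranged. The stretches below run 5′ to 3′ on the strand of the gene, from 104 bases upstream of the TSS closest to the combined summit to 15 bases downstream of it, and were read from the RefSeq assembly GRCm38. They are chr11:72361858-72361977 on the minus strand for Tekt1, chr4:126325673-126325792 on the minus strand for Tekt2, chr11:63061550-63061669 on the plus strand for Tekt3 and chr17:25471486-25471605 on the plus strand for Tekt4. Capitals mark each exact copy of GTTGC or of its reverse complement GCAAC, which are the outer 5 bases, called arms here, of the X-box palindrome described further on.
Tekt1: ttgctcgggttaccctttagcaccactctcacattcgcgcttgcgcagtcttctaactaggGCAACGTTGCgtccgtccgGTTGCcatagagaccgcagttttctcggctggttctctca
Tekt2: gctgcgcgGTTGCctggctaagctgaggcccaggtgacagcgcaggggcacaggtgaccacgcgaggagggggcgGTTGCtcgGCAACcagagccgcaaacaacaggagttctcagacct
Tekt3: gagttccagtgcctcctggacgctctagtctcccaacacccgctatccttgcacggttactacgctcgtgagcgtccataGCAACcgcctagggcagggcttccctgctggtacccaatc
Tekt4: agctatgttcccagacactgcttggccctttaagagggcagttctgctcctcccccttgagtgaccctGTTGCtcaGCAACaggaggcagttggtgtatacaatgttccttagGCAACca
Tekt2 and Tekt4 show a pair of arms that face each other across 3 bases. In Tekt1 the arms stand back to back with a further arm downstream, and Tekt3 has a lone arm.

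Tekt1 (ENSMUSG00000020799), which encodes a tektin of ciliary and flagellar doublets, lies on the minus strand of chromosome 11 and has 3 annotated TSSs, at 72362442, 72361873 and 72361296. In replicate 1 its peak covered chr11:72361388-72362283 with a score of 101, which was rank 650 of the list, or 1.63% from the top. In replicate 2 the peak covered chr11:72361356-72362259 with a score of 54.5 and rank 458, or 2.15% from the top. The peak thus stood in the top few percent in both animals and had nearly the same ends. The combined peak, chr11:72361355-72362271, had a −log10 p of 146, a −log10 q of 141, a 21.2-fold enrichment and rank 535, or 19.6% from the top. Its summit at 72361884 lay 11 bp upstream of the middle TSS, in an intron of the transcript that starts at the outermost TSS, from which it was 558 bp downstream. The middle TSS was the only one of the 3 inside the peak.

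Tekt4 (ENSMUSG00000024175) encodes a tektin needed for a regular flagellar beat and lies on the plus strand of chromosome 17. Its replicate 1 peak at chr17:25471175-25472089 had a score of 109 and rank 570, or 1.43% from the top, the highest place of any tektin in that list. In replicate 2 the peak at chr17:25471182-25471997 scored 35.9 and took rank 837, or 3.93% from the top. Tekt4 was thus ahead of Tekt1 in replicate 1 and behind it in replicate 2. The combined peak at chr17:25471018-25472097 had a −log10 p of 112, a −log10 q of 108 and rank 859, or 31.5% from the top. Its fold enrichment was 12.6, which by fold alone was only rank 2210, or 81.1% from the top, so that the place of Tekt4 depended on the measure. The summit at 25471592 was 2 bp downstream of the TSS shared by 2 coding transcripts and 16977 bp from the outermost TSS, which belongs to a noncoding transcript and had no peak. Of the 4 TSSs, the coding ones at 25471590 and 25471597 were inside the peak.

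Tekt3 (ENSMUSG00000042189), a tektin that supports progressive sperm motility, has a single TSS at 63061654 on the plus strand of chromosome 11. The replicate 1 peak at chr11:63061383-63061765 scored 25.8 and the replicate 2 peak at chr11:63061462-63061895 scored 19.0. These were ranks 3538 and 1839, or 8.88% and 8.64% from the top, nearly the same place in both animals. The combined peak at chr11:63061319-63061789 had a −log10 p of 49.9, a −log10 q of 46.1, an 11.2-fold enrichment and rank 2385, or 87.5% from the top. Its summit at 63061605 was 49 bp upstream of the TSS, outside the transcript.

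Tekt2 (ENSMUSG00000028845), a tektin required for the assembly of dynein inner arms in sperm, lies on the minus strand of chromosome 4 with 5 TSSs between 126325199 and 126325688. Its peak at chr4:126325567-126325849 in replicate 1 scored 22.7 and its peak at chr4:126325518-126325968 in replicate 2 scored 15.7. These were ranks 3947 and 2260, or 9.91% and 10.6% from the top, the lowest places of the 4 bound tektins in each list. The combined peak at chr4:126325492-126325984 had a −log10 p of 43.5, a −log10 q of 39.8, an 11.8-fold enrichment and rank 2715 of 2726, or 99.6% from the top. This value was close to 43.2, the lowest −log10 p that the list contains. The summit at 126325726 was 38 bp upstream of the outermost TSS, outside the transcripts, and 3 of the 5 TSSs lay inside the peak.

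**Figure D1:**
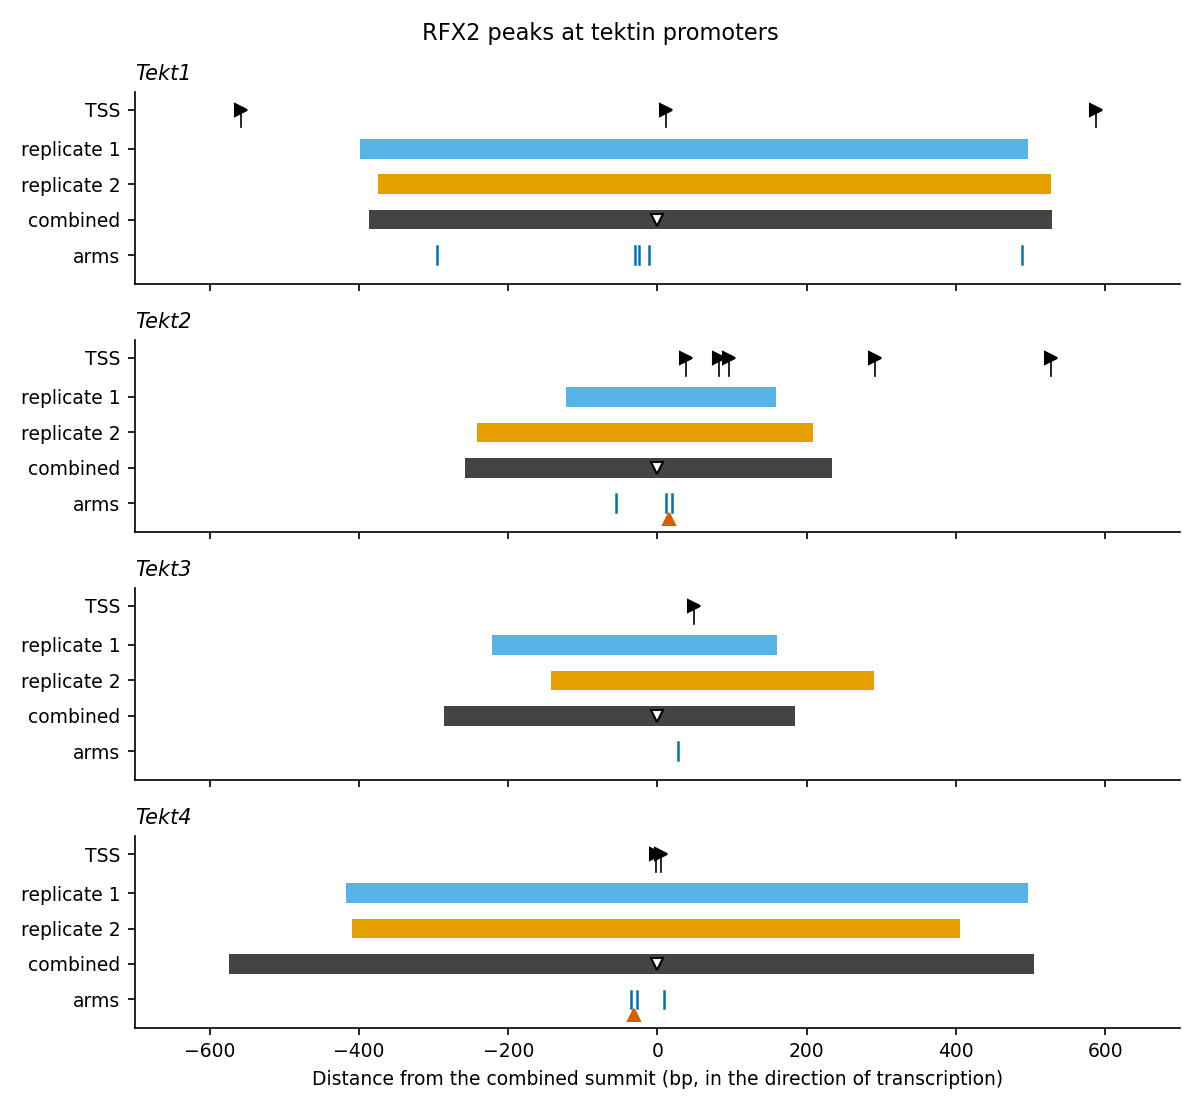
Position of the RFX2 peaks at the 4 bound tektin promoters, in bp from the combined summit and in the direction of transcription. Flags are annotated TSSs, bars are the peak in each list, the white triangle is the combined summit, blue ticks are exact arms inside the combined peak and the orange triangle is the repeat with a spacer of 3. The summits lie between 49 bp upstream and 2 bp downstream of the closest TSS.

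The 4 summits were all close to a TSS, at -11 bp for Tekt1, -38 bp for Tekt2, -49 bp for Tekt3 and +2 bp for Tekt4. Among the 1149 other genes with a combined promoter peak, 461 (40.1%) had their summit within 50 bp of the closest TSS, and the median distance was 71.0 bp. Bound tektin promoters fell into a broad and a narrow pair. The combined peaks of Tekt1 and Tekt4 were 917 and 1080 bp wide, and those of Tekt2 and Tekt3 were 493 and 471 bp wide, where the median of all genes with a combined promoter peak was 884 bp.

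Peak scores fell into the same pairs. In replicate 1 the order was Tekt4, Tekt1, Tekt3 and Tekt2, with a 4.81-fold distance between the highest and the lowest score. In replicate 2 the order was Tekt1, Tekt4, Tekt3 and Tekt2, with a 3.48-fold distance. Tekt1 and Tekt4 were above Tekt2 and Tekt3 in both animals, while the order of Tekt1 and Tekt4 changed between them. Tekt3 was above Tekt2 in both animals, which is no more than a repeated order in 2 animals. Against the other genes with a promoter peak, whose median score was 17.3 in replicate 1 and 13.4 in replicate 2, all 4 tektins were above the median in each list. In the combined list, which holds fewer peaks, the other genes had a median −log10 p of 106 with quartiles of 69.6 and 167. Tekt1 and Tekt4 were above this median and Tekt2 and Tekt3 below the lower quartile. By fold enrichment the grouping differed, since Tekt1 alone, at 21.2, was above the median of 15.0 for genes with a combined promoter peak, and Tekt4 (12.6) stood near Tekt2 (11.8) and Tekt3 (11.2). By −log10 p Tekt2 took place 1152 of 1153 genes and Tekt3 place 1062, against places 365 for Tekt1 and 531 for Tekt4.

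**Figure D2:**
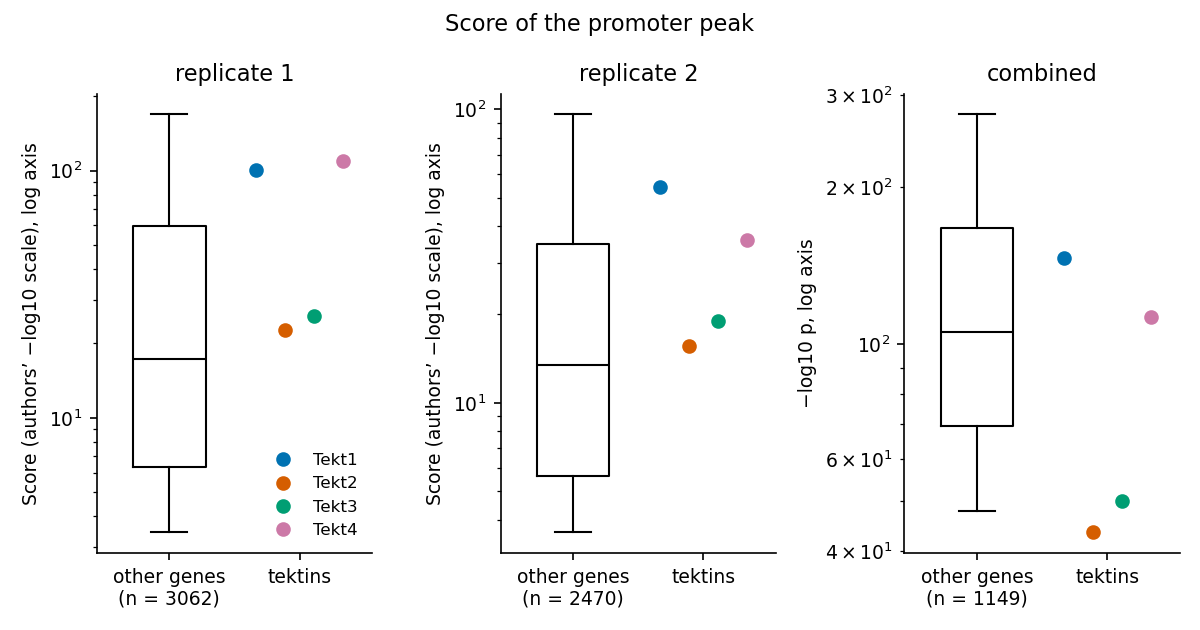
Score of the promoter peak in replicate 1, replicate 2 and the combined list (log axes). Boxes show the quartiles and median of all other protein-coding genes with a promoter peak, whiskers the 5th and 95th percentiles, and each coloured point is 1 tektin. Tekt1 and Tekt4 are above the median of other genes in all 3 panels, and Tekt2 and Tekt3 only in the replicate panels.

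Scores were higher in replicate 1 than in replicate 2 at all 4 bound promoters. The ratio of replicate 1 to replicate 2 was 1.85 for Tekt1, 1.45 for Tekt2, 1.36 for Tekt3 and 3.03 for Tekt4. The same ratio over all 1985 genes with a promoter peak in both replicates had a median of 1.93 and quartiles of 1.35 and 2.59, so the higher scores of replicate 1 were general. Tekt1, Tekt2 and Tekt3 lay between these quartiles. Tekt4 was above the upper quartile, with 83.4% of the genes below it, but short of the 95th percentile of 4.46. The longer list of replicate 1 and the removal of human reads from 1 sequencing run of replicate 2 go together with this difference, and their part in it was not tested.

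**Figure D3:**
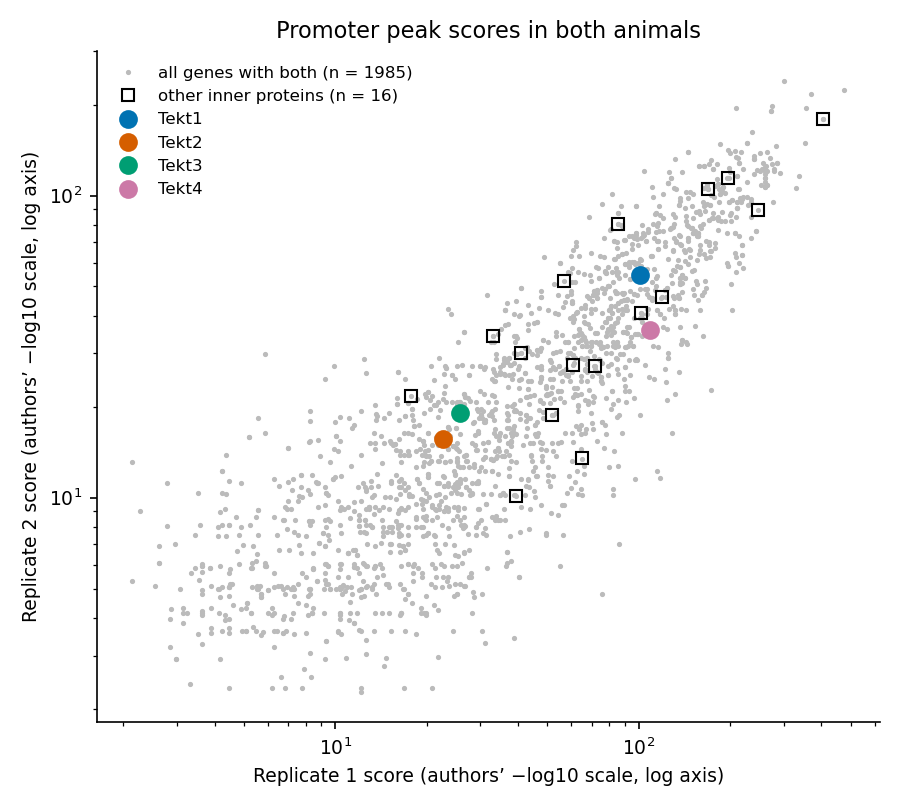
Promoter peak score in replicate 1 against replicate 2 for the 1985 genes with a peak in both (log axes, grey points), with the tektins in colour and 16 other genes for doublet microtubule inner proteins as open squares. Tekt2 and Tekt3 lie in the middle of the cloud, and Tekt4 lies towards higher replicate 1 scores than Tekt1 at a lower replicate 2 score.

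The gene with the nearest pair of replicate scores was found for each bound tektin over 2 samples and 1985 genes. For Tekt1 it was Tub, the gene of the tubby protein, with scores of 103 and 57.0, and for Tekt4 it was Csnk1g1, a casein kinase gene, with 108 and 35.9. Both of these also had a combined promoter peak, at ranks 434 and 617. For Tekt3 it was Amz2, a metalloprotease gene, with 25.2 and 19.4 and a combined peak at rank 2658, which is near the end of that list like Tekt3 itself. For Tekt2 it was Hspb6, a small heat shock protein gene, with 23.5 and 15.5, which had no combined promoter peak. At replicate scores of this size a gene can therefore be in or out of the combined list.

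Tekt5 (ENSMUSG00000039179), the tektin of the sperm flagellum, has TSSs at 10395448 and 10395490 on the minus strand of chromosome 16. The closest peak in replicate 1, chr16:10451313-10452087 with a score of 68.2, was 55.8 kb upstream in intergenic sequence. A combined peak stood at the same place, chr16:10451272-10452087, with a −log10 p of 97.8, a 25.0-fold enrichment and rank 1079. The coding gene whose TSS was closest to this combined summit was Tvp23a, at 4492 bp, so this strong site is nearer to another gene than to Tekt5. In replicate 2 the closest peak was chr16:10388551-10388717, in an intron of Tekt5 and 6.73 kb downstream of the TSS. Its score was 5.95, rank 7259 or 34.1% from the top, and no overlapping peak was listed in replicate 1. A weak intronic peak of the same kind was present in Tekt1, at chr11:72351691-72351917, again with a score of 5.95 and again in replicate 2 only. Apart from the promoter peaks, no other peak lay in the body of a tektin gene. Absence from a list means that no peak passed the threshold of the authors at the depth sequenced, not that RFX2 is absent.

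X-box letters were compared with a palindrome taken from the peaks themselves. Among 14-base words equal to their own reverse complement, GTTGCCATGGCAAC occurred in the largest number of 200 bp windows around the combined summits, with the tektin windows left out. It was present without a mismatch in 163 of 2722 windows (5.99%). Its arms are GTTGC and GCAAC with a spacer of 4 bases between them, and all searches covered both strands. A match is a description of letters and not a measured site.

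With at most 3 mismatches the palindrome matched in 1 of the 4 bound tektins, Tekt1, against 75.5% of the other combined summit windows and 59.1% of those in promoters (590 of 999). The share was 0.992% in flanking windows 1000 bp away and 8.97% in all 1501 bp promoters around the outermost coding TSS. The count depended on this limit, since with at most 4 mismatches 3 of the 4 bound tektins matched (Tekt1, Tekt3 and Tekt4), against 78.1% of the other promoter windows. The match in Tekt1 was GTTGCCATAGAGAC at chr11:72361884-72361897, centred 6 bp from the summit, where the first arm was whole and the differences from the palindrome were G9A, C11A and A12G, counted from 1 at its 5′ end. In Tekt3 the best match was GCGTCCATAGCAAC at chr11:63061621-63061634, 22 bp from the summit, with 4 differences, T2C, T3G, G4T and G9A, so that the second arm was whole. In Tekt4 the best match in the summit window was GTTCCTTAGGCAAC at chr17:25471590-25471603, centred 4 bp from the summit. It had the 4 differences G4C, C6T, A7T and T8A, of which only G4C lies in an arm. In Tekt2 the best match was GTTGCCTGGCTAAG, with 5 differences.

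Tekt2 and Tekt4 also had both arms without a mismatch, but with 3 bases between them. In Tekt4 this came in addition to the arms with a spacer of 4 and 1 mismatch given above, whereas Tekt2 had 3 mismatches at that spacer. The exact repeat was GTTGCTCGGCAAC at chr4:126325705-126325717 in Tekt2, centred 15 bp from the summit and 23 bp upstream of the TSS. In Tekt4 it was GTTGCTCAGCAAC at chr17:25471554-25471566, centred 32 bp from the summit and 30 bp upstream of the TSS. Both elements, the facing capitals in the stretches shown above, thus lie just upstream of the TSS. This arrangement, GTTGCNNNGCAAC, was present in 49 of the 2722 other summit windows (1.80%), in 29 of the 999 in promoters (2.90%), in 0 of 2722 flanking windows and in 92 of 21848 promoters (0.421%). The spacer of 4, GTTGCNNNNGCAAC, which contains the exact palindrome, was present in 16.2% of the other windows, 6.01% of those in promoters, 0 flanking windows and 0.288% of all promoters. Of the 49 windows with the spacer of 3, 42 had no palindrome match with at most 3 mismatches. Their median −log10 p was 61.5 over the 49, against 91.2 over the 440 windows with the spacer of 4. The search for other spacers was made after the palindrome matches of the tektins had been seen, so it describes these promoters and tests nothing.

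**Figure D4:**
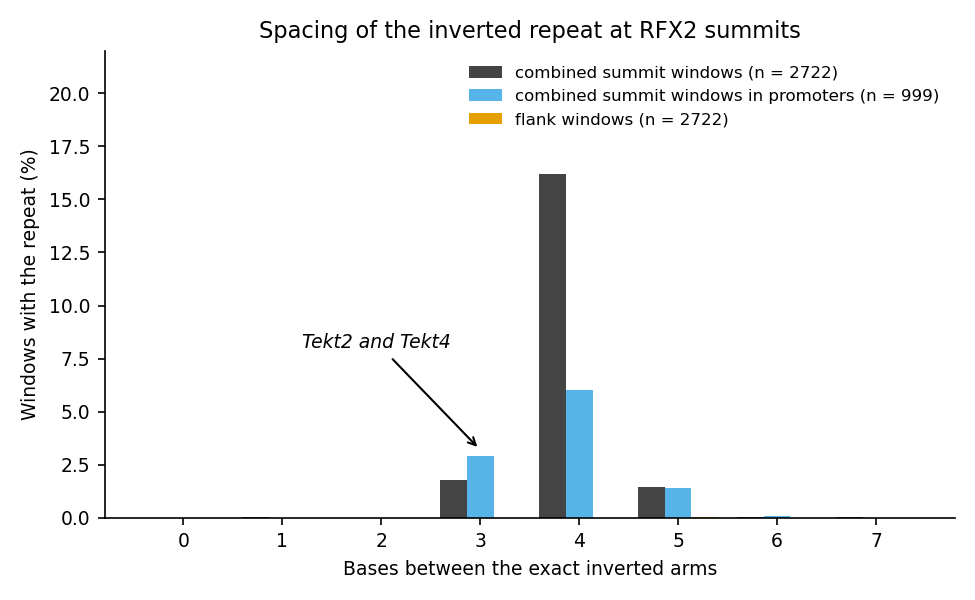
Share of 200 bp windows (%) that hold both exact arms, by the number of bases between them, for summit windows of the combined list without the tektins, for those in promoters and for flanking windows 1000 bp away. A spacer of 4 is the most frequent, at 16.2% of all summit windows and 6.01% of those in promoters. Tekt2 and Tekt4 hold the exact repeat with a spacer of 3, as do 1.80% and 2.90%. Tekt4 also holds the arms with a spacer of 4 and 1 mismatch, which the bars do not count.

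Single arms were frequent at the tektin summits. The 200 bp windows held 3 exact arms in Tekt1, 3 in Tekt2, 1 in Tekt3 and 3 in Tekt4, counted on both strands and including those inside the repeats. The other combined summit windows had a mean of 1.45 arms, those in promoters 1.25 and flanking windows 0.245, and 11.2% of the other summit windows had 3 or more. In Tekt1, GCAAC and GTTGC met back to back 25 to 30 bp upstream of the summit, with a further GTTGC 11 bp from it that belongs to the palindrome match. The nearest arm was 11 bp from the summit in Tekt1 and in Tekt2, 27 bp in Tekt3 and 9 bp in Tekt4, against a median of 8 bp in the other summit windows that held an arm. The bound tektins therefore all had at least 1 intact arm within 30 bp of the summit, as did 86.3% of the other windows that held an arm. Only 86.8% of all other combined summit windows held one, so the share over all of them is lower.

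The promoter of Tekt5 was searched over 1501 bp around its outermost TSS in place of a summit window. Its best palindrome match was GATGCCCTGGCCCC, with 4 mismatches, a number that 41.6% of all promoters reach. It held 1 exact arm, centred at -198 bp from the TSS, where 85.7% of all promoters of this length hold an arm. The stretch around that arm, chr16:10395629-10395748 on the minus strand, is printed as the unbound counterpart of the stretches above, with the arm in capitals.
Tekt5: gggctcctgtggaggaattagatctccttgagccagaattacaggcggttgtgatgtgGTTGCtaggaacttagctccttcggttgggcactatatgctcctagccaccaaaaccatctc
No exact facing arm follows it, although GGAAC, with 1 mismatch to GCAAC, stands across a spacer of 2. The cAMP response element TGACGTCA, a motif of another family of testis transcription factors, was in none of the 5 tektin promoters around the outermost coding TSS, a window that in Tekt1 does not reach the summit. It was in 3.66% of all promoters.

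Base composition did not divide the bound tektins from other bound promoters in 1 direction. The G+C content of the 200 bp summit windows was 52.0% for Tekt1, 62.5% for Tekt2, 59.5% for Tekt3 and 54.0% for Tekt4, on both sides of the median of 59.0% over 999 other promoter windows. The ratio of observed to expected CpG was 0.740, 0.636, 0.565 and 0.139 in the same order, with a median of 0.706 elsewhere. Tekt4 was poor in CpG, with 2 CpG in its window against a median of 12, and only 4.60% of the other promoter windows had a lower ratio.

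Tektins share the lumen of the doublet with other microtubule inner proteins, which bind the inside of the tubule wall. Of a list of 21 genes for such proteins, 18 had a promoter peak in replicate 1, 18 in replicate 2, 16 in both and 15 in all 3 lists. These shares, like that of the tektins, are well above the shares of all genes given above, and no test was made because the list was drawn up with earlier results known. The strongest combined peaks were those of Enkur (−log10 p of 415, rank 6), Cfap161 (276, rank 72), Cfap20 (242, rank 123) and Nme7 (238, rank 134), all proteins of the inner wall or inner junction. Saxo1, a microtubule-stabilising protein of cilia and sperm, was the single gene of the list without a promoter peak in any list, as was Tekt5 among the tektins. The combined −log10 p of the 15 bound genes ran from 48.7 to 415 with a median of 106. Of these 15, 10 were below Tekt1, 8 below Tekt4, 1 below Tekt3 and 0 below Tekt2, so that Tekt2 and Tekt3 stood at the weak end of those with a combined peak. This order does not hold over the whole list, in which 6 genes had no combined promoter peak. In replicate 2 both tektins scored higher than Cfap45 (13.5), a doublet protein gene singled out after its values were seen. In replicate 1 this order was reversed, with Cfap45 at 65.1, Tekt3 at 25.8 and Tekt2 at 22.7. Other genes of the list were also below both tektins in each replicate, with scores down to 7.72 in replicate 1 and 3.66 in replicate 2. Most listed genes with a replicate peak scored above both.

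**Figure D5:**
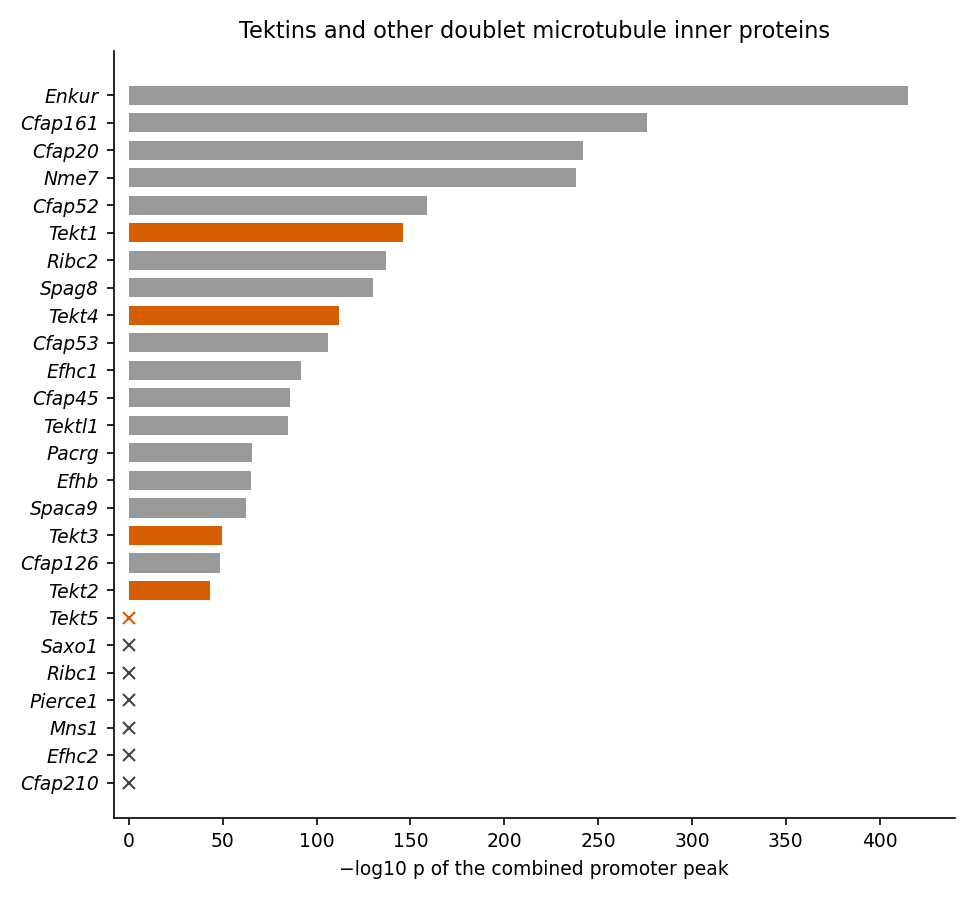
Combined −log10 p of the promoter peak for the tektins (orange) and 21 other genes for doublet microtubule inner proteins (grey), with crosses for genes without a combined promoter peak. Enkur is highest at 415, Tekt1 and Tekt4 lie at 146 and 112 among the others, and Tekt3 and Tekt2 lie near the lower end at 49.9 and 43.5.

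The summit windows of these 15 genes held the palindrome with at most 3 mismatches in 8 cases, against 1 of the 4 bound tektins. The exact repeat with a spacer of 3 was present in 2, Cfap126 and Ribc2, genes for a basal body and axoneme protein and a doublet protein, both of which lacked a palindrome match as Tekt2 and Tekt4 did. These 2 genes are named because of this repeat, after their values were seen. Cfap126 had scores of 39.5 and 10.1 and a combined −log10 p of 48.7, the lowest of the 15, whereas Ribc2 had scores of 85.7 and 80.2 and a −log10 p of 137. Over all 49 windows with this repeat the median −log10 p of 61.5 was below the 88.1 of the promoter windows without a palindrome match, a difference that was not tested. The sets are unlike, since only 29 of the 49 lay in promoters and 7 of the 49 had a palindrome match. An exact arm was present in 13 of the 15 windows. Over the 999 promoter summit windows without the tektins the shares were 81.1% for an arm, 59.1% for the palindrome and 2.90% for this repeat.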

How the data were processed

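RFX2 ChIP and input DNA of 2 WT testis samples were sequenced by the authors, and peak lists were deposited for GRCm38 with Ensembl release 70. The submitters' processing notes name CASAVA 1.8.2, Bowtie 0.12.7 and MACS2 2.0.10.20130520. According to the methods of the study, reads mapping to more than 1 location were dropped, which can hide sites in repeated sequence. The library of replicate 2 was run again, and reads of human origin were taken out of that run, which could also cost conserved mouse sequence. Peaks were called against input without a fragment model.

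In the deposited replicate lists each peak carries a single −log10 value, and the sources used here do not state whether it is a p-value or a q-value. The deposited combined list gives a score equal to the whole part of 10 times −log10 p, −log10 p and −log10 q, the fold (the ratio of ChIP to local background) and a summit offset in bp. Its peak names begin with "all" and it was taken to be called on the reads of both replicates together, although the archive attaches it to replicate 2. According to the methods of the study, peaks were also selected by their reproducibility between the replicates. The sources used here do not state whether the combined list is that selection, so its lower end need not be a plain score threshold.

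Promoters of 21938 protein-coding genes were taken from GENCODE mouse release 21 on GRCm38 patch 6, so gene models can differ from those of the authors. Peaks were ranked by score, and by −log10 p in the combined list. Positions in replicate lists refer to the peak centre. Sequence was read from the RefSeq genome with pysam 0.24.0 and samtools 1.23.1, and searched with Python 3.11.15, numpy 2.4.6 and pandas 2.3.3. The searches were tested on simulated sequence. All 5 members have entries among the RefSeq promoters of 300 bases. No reads were counted, no test was run, and values describe these lists only.

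Named genes were the 5 members, any gene sharing a member's peak (there was none), the gene nearest in log10 replicate scores to each member with both peaks, the 4 highest-ranked and all unbound genes of the inner protein list, and the gene closest to the nearest peak of an unbound member. The members and lists were chosen with earlier results of these data known. Alternatives tried were a promoter from -500 to +50 bp, the outermost coding TSS, the peak centre, the top 50% of each list, equal list lengths, 1 replicate alone, other mismatch limits and windows, and ranks by fold or among promoter peaks.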

Additional observations from a re-analysis of the deposited data

How the results depend on the processing

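Of 24 alternatives to the 5 counts of members, 20 gave a count within 1.5 times the reported one. This total includes the settings with 1 replicate left out, described below, and most of the counts that moved were X-box counts. Several other settings could not change a count of 4. Each of the 4 peaks covers a TSS, and in both replicate lists it ranks within the top 10.6%. With the top 50% of the combined list by −log10 p, 2 members remained (Tekt1 and Tekt4), against 3.42% of all genes. With at most 2 mismatches in the palindrome, 0 members had a match (55.8% of all combined windows), and with at most 4 there were 3, Tekt1, Tekt3 and Tekt4 (86.9%). With the exact repeat with a spacer of 3 also counted, an alternative chosen after seeing the data, there were 3, Tekt1, Tekt2 and Tekt4 (77.0%). Without replicate 1 or without replicate 2, the count in both replicate lists ran from 4 to 4, which only repeats the count of the other list and says nothing about stability. Of 12 alternative ranks 9 moved, 8 of them because the list was restricted to promoter peaks, which put Tekt1 at 10.8% and 13% from the top of the replicate lists and Tekt2 at 38.0% and 39.7%, and the other because Tekt4 was ranked by fold. No paired analysis was possible because the lists give no value per peak in the inputs and no test between groups was made. The error of a peak's score rests on 2 replicates, and scores depend on a depth that is unknown.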
